A study of Mus musculus with 6 samples.

Results

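The TGF-β and SMAD pathway genes described here are 10 genes, Tgfb1, Tgfbr1, Tgfbr2, Smad2, Smad3, Smad4, Smad6, Smad7, Ski and Skil. Their members are the ChIP-seq peaks whose nearest annotated gene, in the deposited peak lists, was 1 of these 10. The rule found 230 peaks of 134964 in all 6 lists, and it used no score and no change with treatment. The nearest gene is a label of position, so a peak given to a gene here was not shown to act on it.

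The study mapped the binding of 3 macrophage transcription factors in bone marrow-derived macrophages (BMDMs) of wild-type mice aged 8 to 12 weeks. Marrow cells had been differentiated with L929 supernatant, a source of macrophage colony-stimulating factor, over 6 days. The control samples received no IL-4, and the IL-4 samples received 20 ng/ml of IL-4 for 1 h on the last day. Chromatin was cross-linked doubly, by DSG and by formaldehyde, before immunoprecipitation of C/EBPα, IRF8 or JUNB. Each antibody had 1 control and 1 IL-4 sample, so no value below has a replicate, no test between conditions was possible, and depth, kit and IL-4 cannot be told apart. Peaks of a factor were called shared when the control and IL-4 peaks overlapped by at least 1 bp, and were otherwise control-only or IL-4-only.

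TGF-β signalling begins when the ligand joins the type II receptor to the type I receptor, which then phosphorylates SMAD2 and SMAD3. These bind SMAD4, enter the nucleus and act on genes together with other transcription factors. SMAD6 and SMAD7 block the pathway at the receptors, and the corepressors SKI and SKIL (SnoN) block it at the DNA. In macrophages TGF-β is known as a restraining signal, and IL-4, acting through STAT6, drives alternative polarization. C/EBPα is a bZIP factor of myeloid cells, IRF8 binds largely with PU.1, and JUNB is a subunit of AP-1.

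The sequences of 8 regions are given first, since the values below refer to them. The first 3 are the regions where at least 2 factors gained or lost a peak. The next 3 are the highest-scoring regions of Smad3, Tgfbr2 and Ski. The last 2 had the largest score ratio at Smad3 and at Tgfbr2 and were chosen after the values were seen. Each is 200 bases of GRCm38 (the assembly also named mm10), plus strand, around the centre of the highest peak. Capitals mark matches on either strand to an AP-1 site (TGACTCA or TGAGTCA), a C/EBP site (TTGCNNAA), a PU.1-IRF site (GGAA, any 2 bases, GAAA), an IRF site (GAAA, any 2 bases, GAAA) or a STAT6 site (TTC, 3 or 4 bases, GAA).

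Tgfbr1, 59.5 kb upstream, chr4:47293747-47293946, in an intron of Col15a1: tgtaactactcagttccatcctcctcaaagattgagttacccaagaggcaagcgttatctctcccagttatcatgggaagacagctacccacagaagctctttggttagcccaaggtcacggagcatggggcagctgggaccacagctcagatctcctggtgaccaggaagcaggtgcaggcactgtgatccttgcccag
Tgfbr1, 6.04 kb upstream, chr4:47347163-47347362, intergenic: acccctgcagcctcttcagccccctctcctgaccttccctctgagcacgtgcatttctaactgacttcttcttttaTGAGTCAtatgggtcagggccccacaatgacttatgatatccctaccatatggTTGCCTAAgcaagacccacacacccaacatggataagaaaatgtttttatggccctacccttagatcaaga
Ski, 1.31 kb upstream, chr4:155223741-155223940, intergenic: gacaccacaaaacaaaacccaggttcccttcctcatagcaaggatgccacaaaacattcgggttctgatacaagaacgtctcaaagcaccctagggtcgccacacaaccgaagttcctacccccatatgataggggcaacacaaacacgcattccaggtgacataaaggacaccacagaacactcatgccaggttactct
Smad3, 41.7 kb downstream of the start, chr9:63716214-63716413, intron 1: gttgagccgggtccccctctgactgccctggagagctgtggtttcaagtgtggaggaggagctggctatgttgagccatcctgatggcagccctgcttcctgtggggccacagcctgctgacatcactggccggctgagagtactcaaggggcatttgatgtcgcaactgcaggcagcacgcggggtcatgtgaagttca
Tgfbr2, 8.90 kb downstream of the start, chr9:116166360-116166559, intron 1: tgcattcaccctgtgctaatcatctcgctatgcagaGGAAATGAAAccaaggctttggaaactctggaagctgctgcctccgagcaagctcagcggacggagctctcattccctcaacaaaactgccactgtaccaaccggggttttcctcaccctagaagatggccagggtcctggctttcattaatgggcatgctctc
Ski, 5.26 kb downstream of the start, chr4:155217180-155217379, intron 1: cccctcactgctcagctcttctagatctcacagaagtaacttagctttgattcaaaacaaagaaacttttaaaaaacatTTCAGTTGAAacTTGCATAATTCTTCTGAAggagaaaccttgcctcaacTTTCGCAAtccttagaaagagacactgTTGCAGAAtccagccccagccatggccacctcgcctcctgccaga
Smad3, 22.8 kb upstream, chr9:63780664-63780863, intergenic: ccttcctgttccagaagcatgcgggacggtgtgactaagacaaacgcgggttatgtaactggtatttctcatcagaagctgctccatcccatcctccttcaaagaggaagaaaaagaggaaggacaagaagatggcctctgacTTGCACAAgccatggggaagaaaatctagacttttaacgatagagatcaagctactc
Tgfbr2, 74.1 kb downstream of the start, chr9:116101173-116101372, intron 6: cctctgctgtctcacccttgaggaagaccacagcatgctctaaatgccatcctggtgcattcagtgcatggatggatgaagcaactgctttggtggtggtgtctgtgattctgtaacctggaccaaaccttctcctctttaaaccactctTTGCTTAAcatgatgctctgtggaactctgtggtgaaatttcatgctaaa

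The Ski intron 1 window carried the most matches of these, with 3 C/EBP sites and 2 STAT6 sites. The Tgfbr1 window at 6.04 kb held 1 AP-1 site and 1 C/EBP site, and it was there that JUNB and C/EBPα peaks were found in control alone. The Tgfbr2 windows held a PU.1-IRF site at 8.90 kb and a C/EBP site at 74.1 kb. None of these motifs was matched in the windows at Tgfbr1 59.5 kb, Ski 1.31 kb and Smad3 41.7 kb. Each of these windows was centred on a C/EBPα peak. The IL-4-only JUNB peak at Tgfbr1 59.5 kb and the IL-4-only IRF8 peak at Ski 1.31 kb lie outside them. The windows therefore do not show the sequence under those peaks.

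The receptors held most of the peaks. Tgfbr2 had 78 peaks and Tgfbr1 had 42, while the ligand gene Tgfb1 had 2 and the common SMAD gene Smad4 had 3. By factor, the 10 genes held 51 C/EBPα peaks in control and 52 after IL-4, 54 and 63 IRF8 peaks, and 5 and 5 JUNB peaks. JUNB peaks were found at Tgfbr1, Tgfbr2, Ski and Skil only, and the other 6 genes had none in either list. In all, 91 separate regions were occupied, of which 50 held 1 factor, 35 held 2 and 6 held all 3.

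**Figure D1:**
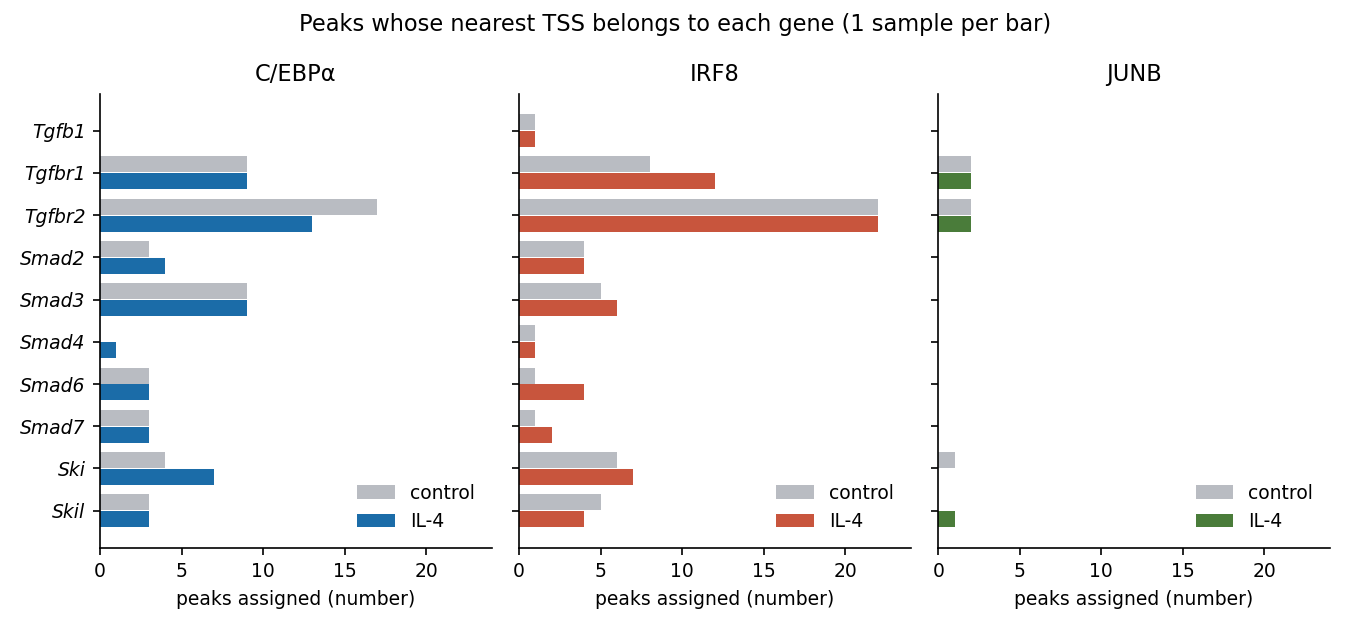
Number of peaks whose nearest gene was each of the 10 genes (x axis, peaks) by gene (y axis), with 1 panel per factor, grey bars for the control sample and coloured bars for the IL-4 sample, and 1 sample per bar. Tgfbr2 had the most peaks for C/EBPα (17 and 13) and IRF8 (22 and 22), and JUNB bars appear at 4 genes.

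Most peaks lay away from promoters. The authors' annotation placed 2 of 51 C/EBPα control peaks in a promoter (3.92%, Wilson 95% interval 1.08 to 13.2), against 6.88% of the whole list, and 2 of 63 IRF8 peaks after IL-4 (3.17%, 0.875 to 10.9), against 9.16%. All of these intervals cover the counting of peaks only. Introns held 26 of the C/EBPα control peaks (51.0%) and intergenic DNA held 23 (45.1%). The median distance to the start site was 26374 bp for C/EBPα and 30272 bp for IRF8 in control, somewhat more than the 20235 and 20951 bp of the full lists. JUNB had no promoter peak among its 5 in either condition.

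Most binding at these genes was seen in both conditions. C/EBPα kept 44 of its 51 control peaks (86.3%, Wilson 95% interval 74.3 to 93.2), and IRF8 kept 45 of 54 (83.3%, 71.3 to 91.0). Both intervals include the 78.6% kept over each factor's whole list. The 7 C/EBPα and 9 IRF8 control-only peaks stand beside a background of 21.4% control-only peaks in the C/EBPα list and 21.4% in the IRF8 list. After IL-4, 8 of 52 C/EBPα peaks were new (15.4%, 8.01 to 27.5), beside 22.0% over the whole list, and 18 of 63 IRF8 peaks (28.6%, 18.9 to 40.7), beside 30.4%. JUNB kept 3 of 5 (60.0%, 23.1 to 88.2) and had 2 new peaks of 5 (40.0%, 11.8 to 76.9), where its whole list was 64.2% control-only and 39.2% IL-4-only. As a group these genes were near the background in the number of peaks gained and lost.

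C/EBPα and IRF8 peaks seen in 1 condition mostly had low scores. The peak score is a number from the authors' peak caller with no stated unit. It grows with depth and is not a coverage, so a ratio of scores is not a fold of occupancy. The 18 IL-4-only IRF8 peaks had a median score of 6.12 (range 3.31 to 15.6), against 19.9 for shared IRF8 peaks after IL-4. The 9 control-only IRF8 peaks had a median of 5.59, against 16.9. The 7 control-only C/EBPα peaks had a median of 6.76 (5.36 to 8.67), against 13.6, and the 8 IL-4-only ones 5.89, against 13.2. JUNB showed no direction. Its 2 control-only peaks scored 6.44 and 16.13, against a median of 8.91 for the shared ones, and its 2 IL-4-only peaks 5.26 and 11.41, against 6.99. In each list 1 of the 2 lay below every shared JUNB peak and the other above. A score of at least 10 was reached by 6 single-condition peaks, which are JUNB at Tgfbr1, IRF8 at Tgfbr2, C/EBPα at 2 places of Ski, and IRF8 and JUNB at Skil. These medians and this count were not taken over the whole lists, so they are not shown to be particular to these genes.

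The scores of shared peaks moved in both directions. Of 44 C/EBPα pairs, 16 scored higher after IL-4 and 28 lower, with a median ratio of IL-4 over control of 0.943 (95% order-statistic interval 0.846 to 1.03 over peaks). A ratio of at least 1.5 was seen at 7 pairs (15.9%), beside 17.7% of all shared C/EBPα peaks, and the inverse at 9 (20.5%), beside 17.8%. Of 45 IRF8 pairs, 26 scored higher and 19 lower, with a median of 1.13 (0.859 to 1.39). IRF8 passed 1.5 upward at 14 pairs (31.1%, against 23.6% of all) and downward at 5 (11.1%, against 17.5%). All 3 JUNB pairs scored lower (ratios 0.715 to 0.817) and none passed 1.5, where 9.60% of all shared JUNB peaks passed it upward and 47.9% downward. The medians over all shared peaks were 0.997, 1.06 and 0.685 in the same order of factors.

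**Figure D2:**
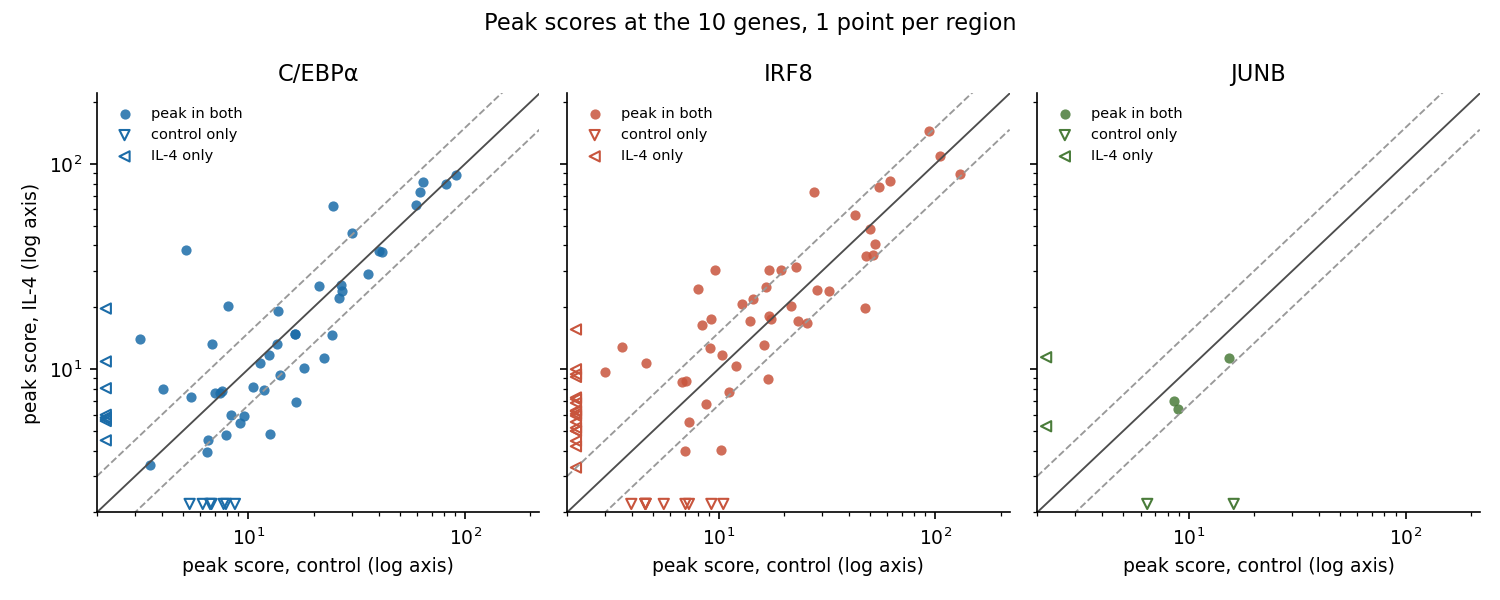
Peak score in control (x axis) against IL-4 (y axis), both on log axes with no stated unit, with 1 panel per factor and 1 point per region at the 10 genes. The solid line marks equal scores and the dashed lines a ratio of 1.5 either way. Open triangles at the margins are peaks found in 1 condition only and have no value on the other axis. Points lie on both sides of the diagonal, and the largest C/EBPα departure is the Tgfbr2 region with a ratio of 7.41.

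Tgfb1, which encodes the ligand TGF-β1, had a single occupied region (chr7:25689134-25689475). It lay 2.32 kb downstream of the start, in a CpG island and, per the authors' annotation, in intron 1. In the GENCODE gene models the region overlaps an exon of Tgfb1. IRF8 scored 11.13 there in control and 7.73 after IL-4. Neither C/EBPα nor JUNB had a peak at the gene. The ratio of 0.695 stayed inside the 1.5 limit.

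Tgfbr1, the type I receptor (ALK5) that phosphorylates SMAD2 and SMAD3, had 16 occupied regions, and its strongest IRF8 binding lay upstream, toward and inside the neighbouring Col15a1. The region 49.7 kb upstream (chr4:47303263-47303995), which overlaps Col15a1, held all 3 factors in both conditions. There IRF8 scored 93.5 in control and 144.2 after IL-4, C/EBPα 6.83 and 13.21, and JUNB 15.41 and 11.37. The IRF8 value after IL-4 was the highest score at any of the 10 genes, at the 98.2 percentile of its list. At 19.6 kb upstream the direction was the opposite, with IRF8 at 130.39 and then 89.35, while C/EBPα had 26.9 and 24.08. Between them, at 37.7 kb, IRF8 scored 42.49 and 56.18 and C/EBPα 26.77 and 25.6.

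Closer to the gene, 1 region changed its factors. At 6.04 kb upstream (chr4:47347057-47347377) the JUNB peak of 16.13, at the 88.2 percentile of its list, and the C/EBPα peak of 7.88 were found in control alone. IRF8 had a peak there in both conditions, at 9.18 and 12.59. In the other direction, at 59.5 kb upstream (chr4:47293547-47294163) IRF8 (5.52) and JUNB (5.26) had peaks after IL-4 alone, beside a shared C/EBPα peak of 12.4 and 11.64. Both new peaks scored below the median of their lists. The promoter region, 0.815 kb upstream, had an IRF8 peak of 4.46 after IL-4 only. IRF8 had 8 peaks at Tgfbr1 in control against 12 after IL-4, and all 5 of the new ones scored below 10. C/EBPα pairs at Tgfbr1 scored lower after IL-4 at 7 of 8 regions (median ratio 0.917), and 2 of them passed 1.5 downward.

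Tgfbr2, the type II receptor that binds the ligand and activates the type I receptor, had the largest set, with 29 regions from 116 kb downstream to 320 kb upstream of its start. Its highest C/EBPα scores lay 2.94 kb upstream (chr9:116178072-116178584), a region with all 3 factors. C/EBPα scored 81.14 and 79.62 there, IRF8 55.0 and 77.18, and JUNB 8.56 and 6.99, in control and IL-4. Although the JUNB score was lower after IL-4, its percentile in the shorter IL-4 list was 60.1, against 57.0 in control. The region 201 kb upstream also held all 3 factors, with C/EBPα at 13.66 and 19.11, IRF8 at 16.48 and 25.09 and JUNB at 8.91 and 6.37. The highest IRF8 scores of the gene, 61.53 and 82.76, were in intron 1 at 8.90 kb, where C/EBPα scored 11.76 and 7.92.

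The largest C/EBPα ratio of the 10 genes was in intron 6 of Tgfbr2, 74.1 kb from the start (chr9:116101076-116101487). C/EBPα scored 5.13 there in control, at the 15.0 percentile of its list, and 37.99 after IL-4, at the 85.0 percentile, a ratio of 7.41. IRF8 had a peak of 15.58 at the same region after IL-4 only. A neighbouring region at 73.3 kb (chr9:116101864-116102177) had C/EBPα scores of 3.15 and 14.0 (ratio 4.44) and IRF8 scores of 7.31 and 5.52. C/EBPα also had 8.09 and 20.35 at 29.9 kb.

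Of the 12 C/EBPα pairs at Tgfbr2, 6 scored higher after IL-4 and 6 lower, and 4 passed 1.5 downward. Inside the gene these were 16.65 and 6.9 at 41.5 kb and 18.11 and 10.06 at 38.3 kb. The other pair of regions lay in intergenic DNA past the end of the gene, with 12.55 and 4.8 at 96.0 kb and 24.26 and 14.63 at 97.7 kb. Another 5 C/EBPα control peaks, each with a score below 10, had no IL-4 partner, so that 17 control and 13 IL-4 peaks were listed. IRF8 pairs at Tgfbr2 scored higher at 11 of 18 regions, with 5 past 1.5 upward and none downward. The largest of these ratios were 3.58 at 320 kb upstream (3.57 and 12.78) and 3.06 at 176 kb upstream (8.04 and 24.57). The former region is in a T-rich low-complexity repeat per the authors' annotation. In the promoter, 0.395 kb upstream, IRF8 had a peak of 4.61 in control only.

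**Figure D3:**
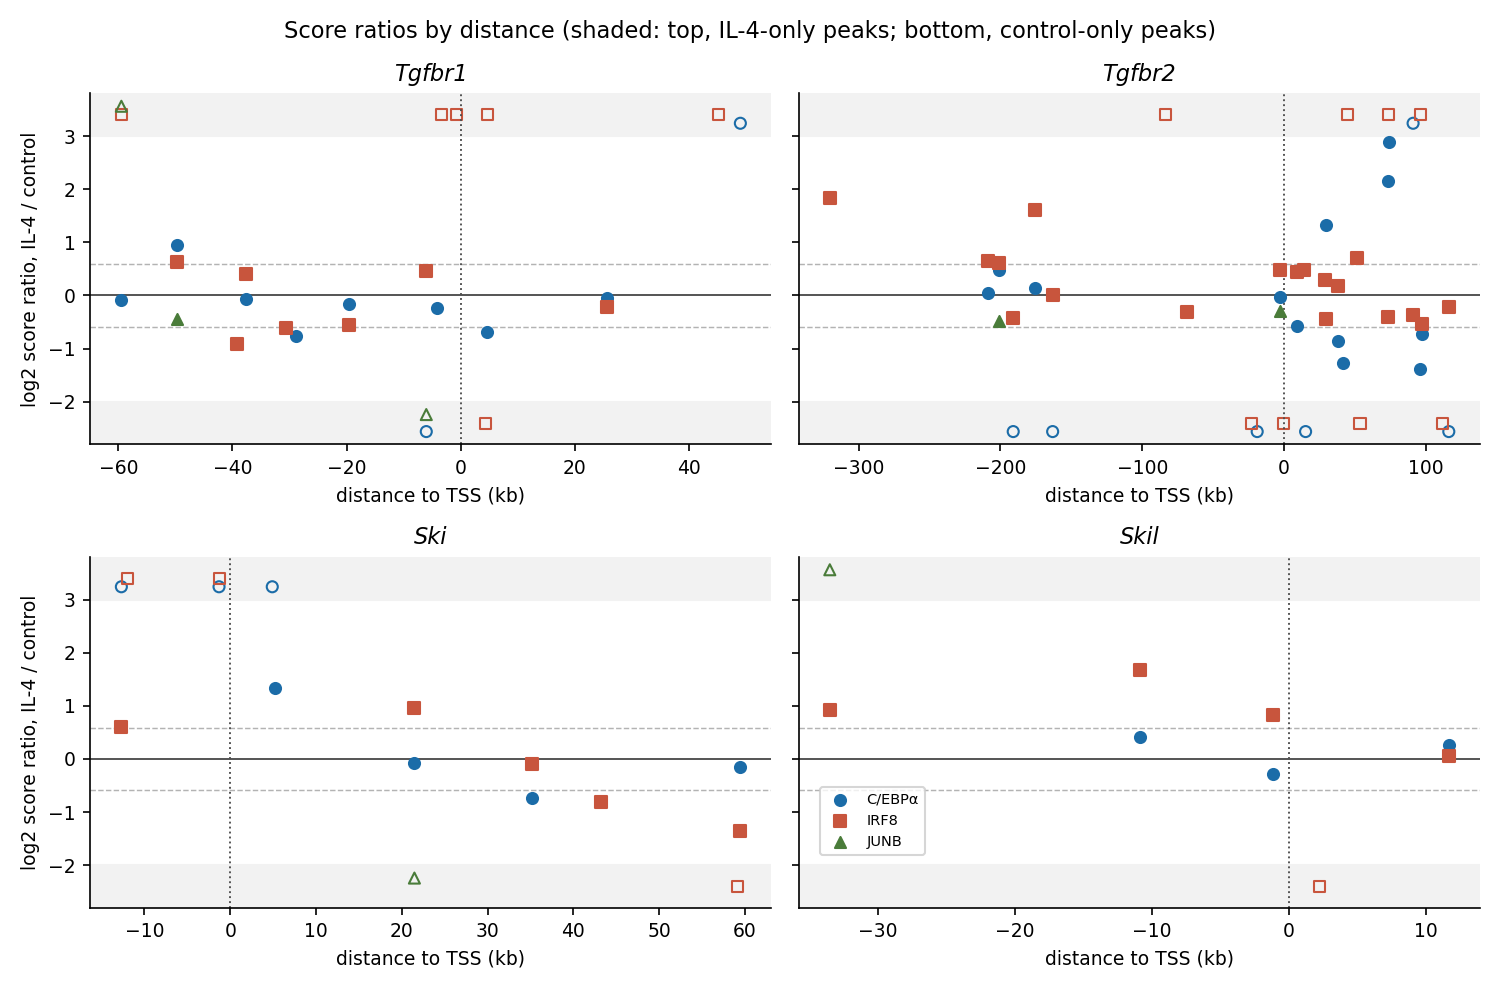
log2 ratio of peak scores, IL-4 over control (y axis), by distance to the start site in kb (x axis, negative is upstream) for Tgfbr1, Tgfbr2, Ski and Skil. Circles are C/EBPα, squares IRF8 and triangles JUNB. Dashed lines mark a ratio of 1.5 either way, and open symbols in the shaded bands are peaks found only after IL-4 (top) or only in control (bottom) and have no ratio. At Tgfbr2 C/EBPα points downstream of the start spread from a ratio of 0.382 to 7.41, and at Skil no shared IRF8 point lies below 0.

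Smad3 encodes a receptor-activated SMAD and is a gene that the study follows among those repressed by IL-4, so its peaks bear on whether binding near it differed after 1 h. The paper's microarray and RT-qPCR values for Smad3 are RNA after a longer IL-4 treatment, and so differ from these peaks in time and measure. It reports the repression as dependent on HDAC3 and diminished without NCoR, neither of which was mapped here. Smad3 had 10 regions, 7 of them in intron 1 and 3 upstream. C/EBPα had a peak at 9 regions in both conditions and IRF8 at 5 in both, with 1 further IRF8 peak after IL-4 only. None was lost, and JUNB had no peak. The highest C/EBPα scores of all 10 genes were here, at 41.7 kb in intron 1 (chr9:63716094-63716562), with scores of 90.98 in control and 88.31 after IL-4, and IRF8 at 17.17 and 18.16.

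The intronic and upstream regions of Smad3 differed in direction. Within intron 1, C/EBPα scored lower after IL-4 at 5 of 6 regions (median ratio 0.801, range 0.505 to 1.99), and IRF8 at 3 of 4 (median 0.848, 0.421 to 1.06). The lowest C/EBPα ratio was at 26.4 kb (chr9:63731316-63731798), with 22.41 and 11.32, where IRF8 had 50.11 and 47.85. The lowest IRF8 ratio was at 19.8 kb (chr9:63738020-63738498), with 47.21 and 19.89, where C/EBPα had 40.01 and 37.37. Both factors scored lower after IL-4 at both regions, and at each only 1 of them passed 1.5. At 17.5 kb IRF8 had 32.4 and 23.98, and at 14.0 kb C/EBPα had 14.03 and 9.36.

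Upstream, all 3 shared C/EBPα regions and the only shared IRF8 region scored higher after IL-4. At 22.8 kb (chr9:63780538-63780965) C/EBPα scored 61.57 and 72.81, and IRF8 scored 9.66 at the 47.9 percentile and 30.36 at the 81.6 percentile (ratio 3.14). At 35.8 kb (chr9:63793658-63794219) C/EBPα scored 30.02 and 46.0 (ratio 1.53), with a new IRF8 peak of 4.2, and the most distant region, at 92.6 kb, had C/EBPα at 7.54 and 7.77. Over all genes the shares on both sides were close, with 49.9% of shared C/EBPα peaks upstream of a start and 49.5% of those downstream scoring higher after IL-4. For IRF8 they were 55.7% and 55.2%. Among the other members, Tgfbr2 also had higher median ratios upstream than downstream (C/EBPα 1.06 and 0.638, IRF8 1.46 and 0.995). The same order was seen at Tgfbr1 (C/EBPα 0.917 and 0.797, IRF8 1.00 and 0.860) and for C/EBPα at Smad6 (1.26 and 0.779). For IRF8 it was also seen at Smad2 (1.93 and 1.54), Ski (1.52 and 0.753) and Skil (1.90 and 1.04). Apart from Tgfbr2, each of these rests on few regions on at least 1 side. The order was thus not particular to Smad3. At Skil the C/EBPα medians were in the reverse order (1.08 and 1.20), and at Smad7 all 3 upstream C/EBPα pairs scored lower. The split at Smad3 was noticed in these values, rests on 14 pairs of peaks from 1 pair of samples per factor, and was not tested. Over both sides the median ratio was 0.971 for C/EBPα and 0.955 for IRF8. The latter is the IRF8 ratio at 26.4 kb, which turns to 1.03 when scores are divided by the median of their list.

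**Figure D4:**
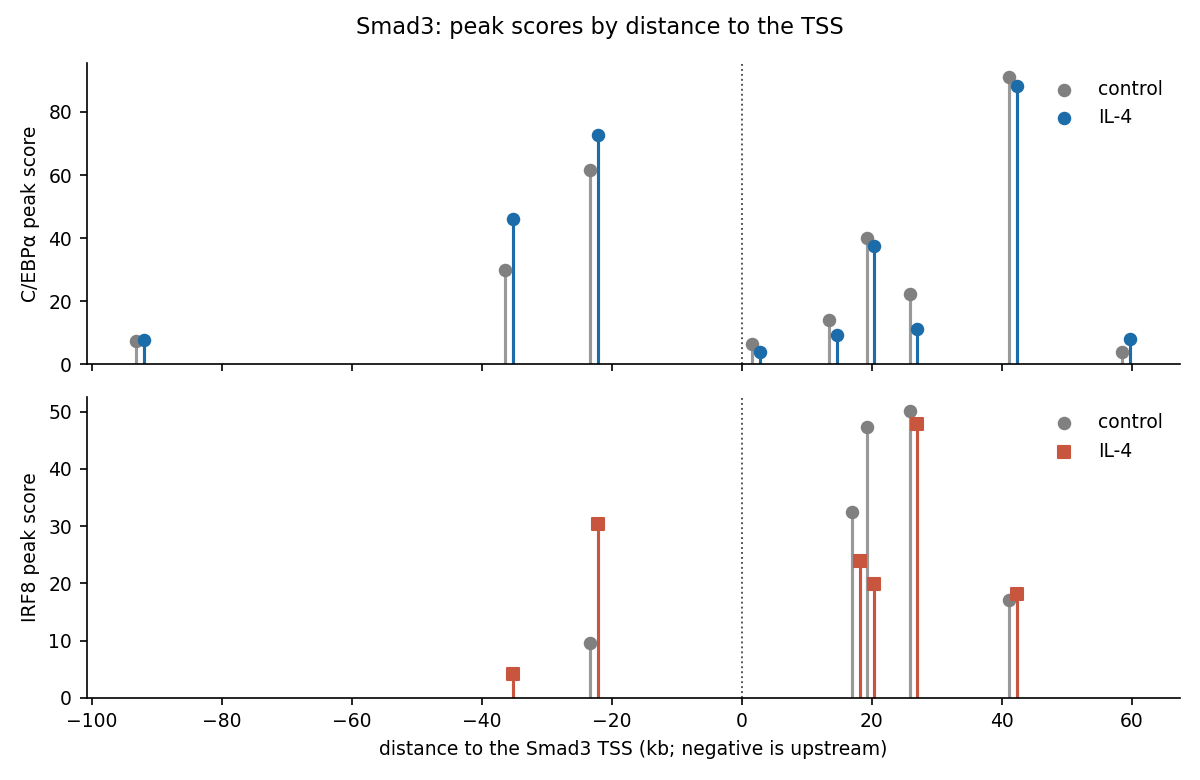
Peak scores at Smad3 (y axis, no stated unit) by distance to the start site in kb (x axis, negative is upstream), with C/EBPα above and IRF8 below. Grey points are the control sample and coloured points the IL-4 sample, drawn slightly apart so that both can be seen, with stems from 0. Upstream stems are taller after IL-4 for both factors, and in intron 1 most are shorter, with the exception of C/EBPα at 59.1 kb and IRF8 at 41.7 kb.

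Smad2, the partner of Smad3 in the same step, had 6 regions, with 3 C/EBPα peaks in control and 4 after IL-4, and 4 IRF8 peaks in each. Its main IRF8 region lay 4.27 kb upstream, in a LINE repeat (chr18:76237195-76237689). IRF8 scored 27.65 there in control and 73.11 after IL-4 (ratio 2.64), from the 79.1 to the 93.5 percentile, while C/EBPα stayed near its lowest scores with 3.53 and 3.42. The main C/EBPα region was in intron 1 (chr18:76254773-76255123), with 59.31 and 63.04 and no IRF8 peak. IRF8 also had 4.61 and 10.64 at 65.5 kb, so that 2 of its 4 pairs passed 1.5 upward. A C/EBPα peak of 5.81 at 3.45 kb was found after IL-4 only.

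Smad4, the SMAD shared by all branches of the pathway, had only weak peaks, each in 1 condition. An IRF8 peak in the promoter scored 9.27 in control only. After IL-4 IRF8 had a peak of 9.43 in intron 1, 10.1 kb from the start, and C/EBPα a peak of 4.49 at 1.80 kb. No region of Smad4 was shared between conditions.

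The inhibitory SMAD genes each had a C/EBPα peak at the promoter in both conditions. At Smad6, which mainly restrains the BMP branch, that region (chr9:64021919-64022245) scored 64.22 in control and 81.13 after IL-4, and an IRF8 peak of 6.83 was added after IL-4. IRF8 had 1 peak at Smad6 in control and 4 after IL-4, none of them shared and the highest at 9.15. At Smad7, which is induced by TGF-β and blocks the type I receptor, the promoter peak scored 16.34 and 14.89. A stronger C/EBPα region lay 3.90 kb upstream (chr18:75363171-75363745), with 41.36 and 37.33, where IRF8 had 6.81 and 8.62. All 3 C/EBPα pairs at Smad7 scored lower, with ratios from 0.692 to 0.911 and none past 1.5.

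Ski, a corepressor that binds SMAD complexes and recruits histone deacetylases, gained more C/EBPα peaks than any other of these genes, with 4 in control and 7 after IL-4. In intron 1, 5.26 kb from the start (chr4:155217105-155217436), C/EBPα scored 24.64 in control and 62.53 after IL-4 (ratio 2.54), from the 75.9 to the 93.1 percentile. Beside it, at 4.90 kb (chr4:155217504-155217762), a C/EBPα peak of 19.7 was found after IL-4 only, the highest IL-4-only score at the 10 genes. IRF8 and JUNB had no peak at either. The window with 3 C/EBP and 2 STAT6 matches printed above is the former of these regions.

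New peaks also lay before the gene. At 1.31 kb upstream (chr4:155223539-155223960) C/EBPα (8.06) and IRF8 (7.26) both had a peak after IL-4 only. At 12.7 kb upstream (chr4:155234811-155235510) C/EBPα had a new peak of 10.88, and IRF8 scored 14.48 and 21.94. Deeper in intron 1 the scores were lower or mixed. IRF8 had 10.25 and 4.03 at 59.5 kb, the lowest IRF8 ratio of the 10 genes (0.393), and C/EBPα had 7.87 and 4.75 at 35.2 kb. At 21.5 kb the JUNB peak of 6.44 was found in control only, while IRF8 had 8.43 and 16.44 and C/EBPα 11.27 and 10.68.

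Skil, the SKI-related corepressor SnoN, had higher IRF8 scores after IL-4 at all 4 shared regions, with ratios from 1.04 to 3.20 and 3 past 1.5. Its strongest region, 11.7 kb into the gene (chr3:31106494-31106945), had IRF8 at 105.37 and 109.53 and C/EBPα at 21.1 and 25.42. At 1.15 kb upstream, in a CpG island (chr3:31093454-31094125), IRF8 scored 17.18 and 30.34 and C/EBPα 35.44 and 28.94. At 10.9 kb upstream IRF8 had 3.01 and 9.62. At 33.5 kb upstream (chr3:31061180-31061802) a JUNB peak of 11.41, at the 85.9 percentile of its list, was found after IL-4 only, and IRF8 had 9.24 and 17.58. An IRF8 peak of 10.52 in the 5′ UTR, 2.25 kb from the start, was found in control only.

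Factors often met at the same region. In control 30 regions held both C/EBPα and IRF8, which is 58.8% of the C/EBPα regions and 55.6% of the IRF8 regions, and after IL-4 36 did (69.2% and 57.1%). All 5 JUNB regions in control held both other factors. After IL-4 all 5 held IRF8 and 4 held C/EBPα. At 1 of these, Tgfbr1 59.5 kb upstream, the JUNB and IRF8 peaks did not overlap each other. They fell in 1 region because a C/EBPα peak overlapped both. These pairwise shares were not taken over all regions, so they are not shown to be particular to these genes. Over all genes 67.7% of regions held 1 factor, 26.7% held 2 and 5.56% held 3, beside 54.9%, 38.5% and 6.59% at these genes. The direction was often not the same. Of 26 regions where C/EBPα and IRF8 each had a peak in both conditions, both scored higher at 7, both lower at 7, C/EBPα lower with IRF8 higher at 10, and the reverse at 2. The same split was not counted over all regions. There the median ratio of shared peaks was 0.997 for C/EBPα and 1.06 for IRF8. Regions where at least 2 factors gained or lost a peak were 3 of 91 (3.30%), beside 3.90% of all 60856 regions.

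Motifs under the peaks were counted in 200 bp around each centre. The C/EBP site was found in 16 of 52 C/EBPα peaks after IL-4 (30.8%, Wilson 95% interval 19.9 to 44.3), beside 33.3% of that whole list. The PU.1-IRF site was in 9 of 63 IRF8 peaks after IL-4 (14.3%, 7.70 to 25.0), beside 13.9%, and the IRF site was in 2 (3.17%, 0.875 to 10.9), beside 9.42%. The AP-1 site was in 3 of 5 JUNB peaks in control and 4 of 5 after IL-4, where the whole lists had 47.7% and 43.0%. The STAT6 site was in 7 of 51 C/EBPα peaks in control (13.7%, 6.81 to 25.7) and 12 of 52 after IL-4 (23.1%, 13.7 to 36.1), beside 12.8% and 17.6%. For IRF8 it was in 7 of 54 (13.0%) and 8 of 63 (12.7%), beside 12.7% and 15.7%. The short SMAD site (GTCTG or GTCTAGAC, not capitalised above) was in 27 of 52 C/EBPα peaks after IL-4 (51.9%, 38.7 to 64.9), where 38.3% of the whole list had it, and in 28 of 63 IRF8 peaks (44.4%, 32.8 to 56.7), where 36.0% did. In control it was in 23 of 51 C/EBPα peaks (45.1%, 32.3 to 58.6), beside 38.5%, and in 20 of 54 IRF8 peaks (37.0%, 25.4 to 50.4), beside 36.2%. A match is a description of the letters and not of a bound site.

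A wider list of 50 pathway symbols was read in the same way, and 44 of them had a peak in at least 1 list. Its C/EBPα peaks numbered 127 in control and 119 after IL-4, with 30 control-only (23.6%) and 23 IL-4-only (19.3%). Its IRF8 peaks numbered 199 and 229, with 38 control-only (19.1%) and 68 IL-4-only (29.7%), and its JUNB peaks 27 and 16, with 19 and 8. Of the shared pairs, 25 of 96 for C/EBPα (26.0%), 41 of 161 for IRF8 (25.5%) and 2 of 8 for JUNB (25.0%) passed 1.5 upward, beside 17.7%, 23.6% and 9.60% of all shared peaks. Downward 18 (18.8%), 25 (15.5%) and 4 (50.0%) did, beside 17.8%, 17.5% and 47.9%. The ligand and latency genes had 31 new IRF8 peaks of 104, the receptors 14 of 54, the SMADs and regulators 14 of 42 and the common targets 9 of 29. Most of these shares lay close to the background of 30.4%.

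At 20 of the 308 regions of that list (6.49%) at least 2 factors gained or lost a peak, in 12 genes, beside 3.90% of all regions. Factors only gained at 5 regions, of Itgb8, Inhba, Acvr2a and Acvr1. They only lost at 8, of Tgfb2, Usp15, Tgif1, Ltbp1 and Acvr2a, and gains and losses were mixed at 7, of Itgb8, Tgfbi, Acvr1b, Itgav and Bmpr1b. Itgb8 encodes the integrin chain that, with the product of Itgav, releases active TGF-β from its latent form. Its promoter region, with scores of 19.03 for C/EBPα and 7.46 for IRF8, had peaks after IL-4 only. At Itgav, 5165 bp into the gene, the IRF8 peak of 10.14 was new and the JUNB peak of 4.56 was found in control only.

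The cell identity was checked on marker genes. Of 8 macrophage symbols, 6 (Csf1r, Emr1, Cd68, Itgam, Mertk and Fcgr1) had C/EBPα and IRF8 peaks in both conditions, and 4 had a JUNB peak in control and 2 after IL-4. The symbols without a peak in any list were Adgre1, which is another name of Emr1, and Spi1. Peaks also lay at genes of other cell types. In control and IL-4, C/EBPα had 4 and 4 peaks at 3 B cell genes, 0 and 1 at 3 T cell genes and 2 and 0 at 3 fibroblast genes. IRF8 had 7 and 7, 1 and 1, and 4 and 7 in the same order, and JUNB had 2 and 1 at the B cell genes and none at the rest. Binding near a gene is not its expression, so these counts are a weak check of the cells.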

How the data were processed

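ChIP-seq peak lists of 6 mouse BMDM samples were used, 1 for each of 3 antibodies in control and IL-4. Per the study's methods and the submitters' processing notes, the authors aligned reads to mm10 with BWA 0.7.10 and SAMtools 0.1.19, called peaks per sample with MACS2 2.0.10, removed blacklisted peaks and annotated the rest with HOMER 4.2. No source states the unit of the deposited peak score. It comes from the authors' caller, may be a −log10 p or q, and rises with depth. Read numbers per sample are not given in the sources used here, so depth is unknown. Libraries came from either of 2 kits, and which served which sample is not given.

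Peaks were members when the deposited gene name was 1 of the 10. Control and IL-4 peaks of a factor were shared at an overlap of at least 1 bp and paired one-to-one for score ratios, with 1.5 either way as the limit. Overlapping peaks of any list were merged into regions, which took the highest score of each sample. Percentiles are ranks within a list. Shares carry Wilson 95% intervals, and medians order-statistic intervals, or the range under 6 pairs. Intervals cover peaks only. With 1 sample per group no test was run.

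All 10 genes were named. At each, the highest peaks per factor, single-condition peaks with a score of 10 or more, regions changed for at least 2 factors and promoter peaks were described. Wider-list genes were named where at least 2 factors changed at a region. Sequence windows were chosen by the order given beside them, and no sequence is shown for 3 genes on chromosome 18, for windows over a UTR or for Tgfb1. Sequence and gene models came from GRCm38 and GENCODE, the build mm10 names, and no peak ended past its chromosome. Coordinates are 1-based with an uncertainty of 1 bp. The members, lists and rules were chosen with earlier results of these data known. Alternatives changed the overlap rule, score minimum, list length, distance, peak width, score scaling and gene assignment. Scripts used Python 3.11.15 with pysam 0.24.0, scipy 1.17.1, pandas 2.3.3, numpy 2.4.6 and matplotlib 3.10.9, and the overlap code was tested on simulated data.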

Additional observations from a re-analysis of the deposited data

How the results depend on the processing

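Of 106 values under 8 alternative settings, 101 stayed within the interval of the main value, or within 1.5 times it for counts. Some intervals were very wide, such as 23.1 to 88.2 for the JUNB share kept and 0.421 to 3.14 for IRF8 at Smad3. Some settings changed no value, so this tally is a weak check of stability. Counting only peaks with a score of 10 or more left 5 of 23 C/EBPα and 9 of 29 IRF8 pairs past 1.5 in score. The main counts were 16 of 44 and 19 of 45, so both the number and the share past 1.5 fell. This minimum applied to both samples, so it dropped pairs with a low score in 1 sample, which can have large ratios. The share over all shared peaks at this minimum is not given, so the fall is not shown to be particular to these genes. Peaks were also assigned by gene body and 10000 bp around it, in place of the nearest start. This left 11 of 32 IRF8 pairs past 1.5 and no IL-4-only JUNB peak (0% of 1 peak), again without the shares over all peaks under that rule. Dividing scores by the median of each list put the JUNB median ratio at 0.936, against 0.738, so most of that difference went with the lower scores of the whole IL-4 list. The same scaling put the IRF8 median at Smad3 at 1.03, against 0.955, so that median kept no direction. Gene body assignment, which drops distant upstream regions and adds peaks listed under other genes, gave 0.660 for C/EBPα at Smad3, against 0.971. A ratio within a factor cannot separate depth from binding, no peak in a list is not absence of binding, and a JUNB share rests on 5 peaks. No paired analysis was possible because each factor and condition had 1 sample and no replicate number.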
